A study of Mus musculus with 18 samples.

Results

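The 39 genes described here work in fat cells or in the making of fat. They were listed by name as genes of adipocytes, brown fat and lipogenesis, and all 39 were found among the 24054 genes of the tables. They were sorted by what is known of them into 11 fat-restricted genes, which few cells other than adipocytes express at high levels, 14 general lipogenic genes, which many tissues use to make fatty acids and triglyceride, and 14 genes that fat shares with muscle, liver, endothelium or macrophages. RNA-Seq was performed on the hypothalamus, pituitary and thyroid of 3 WT and 3 K146Q mice, which gave 18 libraries in 6 groups of 3. All mice were untreated males of the C57BL/Ntac strain at 3 months of age. The K146Q mice were homozygous for a whole-body knockin that exchanges 1 lysine of the thyroid hormone receptor beta, THRB, for glutamine in all of its isoforms, and the WT mice were of the same substrain. Because the mutated receptor was in every tissue, an effect that arises within a gland and an effect of the blood that reaches it cannot be told apart in these data. The values are normalized CPM, that is, reads scaled to the size of each library after a normalization factor.

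A white adipocyte keeps its triglyceride in a droplet coated by perilipins and CIDE proteins and secretes adiponectin and leptin, whereas a brown adipocyte burns fatty acids through the uncoupling protein UCP1. Fatty acids are built from citrate by ATP citrate lyase, acetyl-CoA carboxylase and fatty acid synthase, are lengthened and desaturated, and are joined to glycerol 3-phosphate to give triglyceride. Thyroid hormone is known to act on many lipogenic genes and on brown fat, and in the mouse the thyroid gland lies against muscle, the parathyroids and pads of fat.

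The libraries held 14902330 to 21230050 reads, so that 3 reads, the limit that a count of 0 allows, corresponded to 0.133 to 0.190 CPM. The labelled tissues carried their own markers, with a summed level of 90348 to 361414 CPM for 8 follicular cell genes in thyroid, 110075 to 257093 CPM for 9 pituitary genes in pituitary and 421 to 645 CPM for 8 hypothalamic genes in hypothalamus. The thyroid libraries differed in muscle genes. The sum of 10 skeletal muscle genes was 507, 6130 and 9028 CPM in WT mice 1, 2 and 43 and 5109, 1265 and 1110 CPM in K146Q mice 60, 62 and 83. In these bulk samples fewer cells of a type and less RNA per cell cannot be told apart. The paper reports that the thyroid gland was enlarged in K146Q mice and that its follicles were hyperplastic. Whether attached tissue made up a different share of the thyroid samples in the 2 genotypes was not tested.

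In the thyroid nearly the whole list was lower in K146Q mice. By limma on log2(CPM + 0.5), 33 of the 39 genes were lower with an adjusted p under 0.05, 1 was higher and 5 were not called, against a background of 37.8% of 15200 genes called, 18.1% of them lower and 19.7% higher. All 39 genes passed the filter on low values. A fall of at least 1 on the log2 scale was called for 26 of the 39 genes and for 5.47% of all genes tested. In 33 of the genes every K146Q library lay below every WT library, which held for 25.7% of all genes, and in 1 gene every K146Q library lay above, which held for 26.6%. The median log2 change was -2.42 over the fat-restricted genes, -1.83 over the shared genes and -1.26 over the general lipogenic genes, beside -0.0250 over all genes tested. Of the 11 fat-restricted genes 9 fell, of the 14 shared genes 13 fell, and of the 14 general lipogenic genes 11 fell and Elovl6 rose. In the mouse genome (GRCm38) Plin1 lies on chromosome 7 from 79720218 to 79732903, Ucp1 on chromosome 8 from 83290352 to 83298452, Scd1 on chromosome 19 from 44394455 to 44407879 and Elovl6 on chromosome 3 from 129532355 to 129638495. An exact permutation test of 3 libraries against 3 cannot go below p = 0.1, and it gave that value for each of the 34 genes without overlap.

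**Figure D1:**
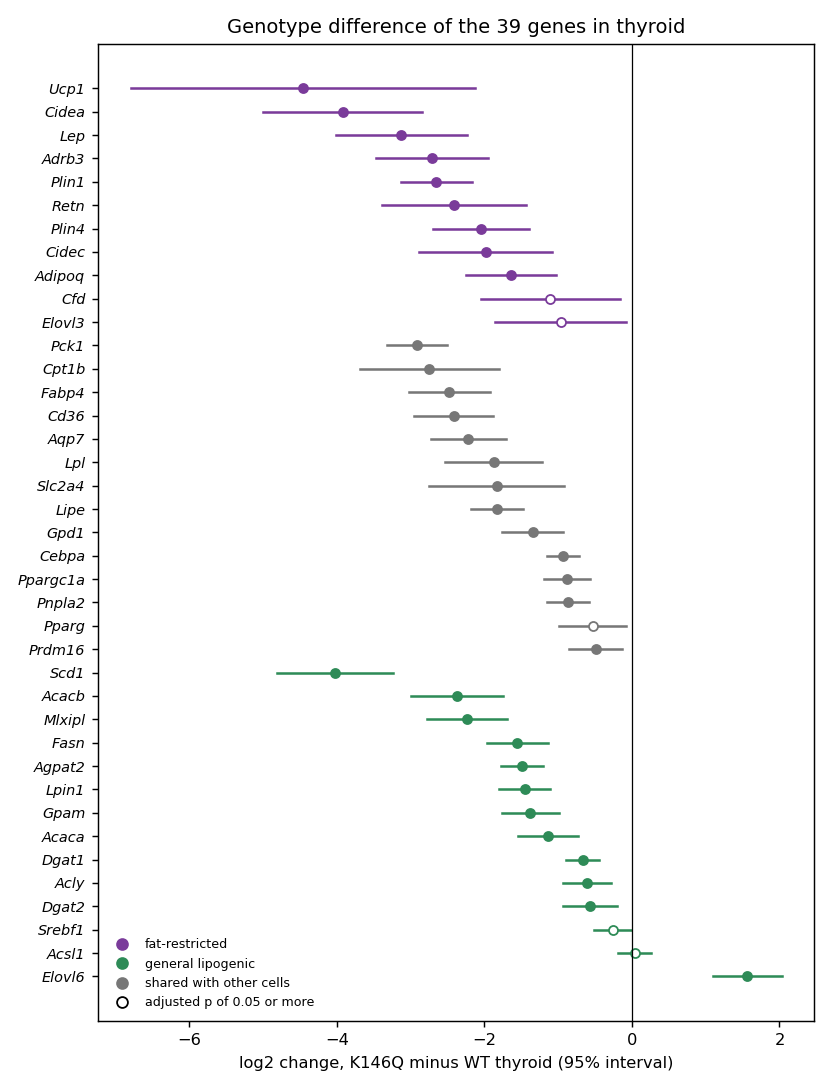
Genotype difference of the 39 genes in the thyroid (horizontal axis, log2 change of K146Q minus WT mice, limma, n = 3 and 3), sorted within 3 sets marked by colour, where a point is the estimate, a bar its 95% interval and an open point an adjusted p of 0.05 or more. Elovl6 at 1.56 is the 1 gene past the threshold to the right of 0, and the fat-restricted genes run from -4.47 for Ucp1 to -0.97 for Elovl3.

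Adipokines are the hormones and proteins that fat secretes. In every sentence that follows the 3 WT values are those of mice 1, 2 and 43 and the 3 K146Q values those of mice 60, 62 and 83, in that order. Adiponectin, Adipoq, was at 59.4, 74.7 and 83.6 CPM in WT thyroids and at 35.4, 17.6 and 18.6 CPM in K146Q thyroids. It fell by 1.64 on the log2 scale (SE 0.26, limma adjusted p = 0.00258), and its highest mutant value stayed below its lowest WT value. The satiety hormone leptin, Lep, was at 9.60, 12.5 and 6.38 CPM in WT and at 1.39, 0.235 and 0.469 CPM in K146Q mice, the latter from 4 to 28 reads. Its fall of 3.13 (SE 0.38, adjusted p = 0.00081 by limma) was the third largest of the 11 fat-restricted genes. Resistin, Retn, was at 10.04, 14.3 and 25.8 CPM and at 3.72, 1.23 and 3.17 CPM, a log2 change of -2.42 (SE 0.42, limma adjusted p = 0.0037). Adipsin, Cfd, the complement factor secreted by fat, was the exception among the 4. Its levels of 216, 306 and 549 CPM in WT overlapped with 256, 102 and 139 CPM in K146Q mice, and its log2 change of -1.11 (SE 0.41, limma adjusted p = 0.0658) did not pass. Without WT mouse 1 it passed at -1.42 (adjusted p = 0.0323 by limma), and without K146Q mouse 60 at -1.47 (adjusted p = 0.0263).

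The 4 lipid droplet genes all fell. Perilipin 1, Plin1, which coats the droplet and gates lipolysis, was at 106, 108 and 101 CPM in WT thyroids and at 23.3, 12.2 and 15.1 CPM in K146Q thyroids. Its WT values were the tightest of the fat-restricted genes above 1 CPM in relation to their mean (105 ± 3.79 CPM, SD, n = 3), and its log2 change was -2.65 (SE 0.21, limma adjusted p = 0.000139). Perilipin 4, Plin4, was at 90.9, 130 and 108 CPM and at 40.4, 17.7 and 24.3 CPM, a log2 change of -2.05 (SE 0.28, adjusted p = 0.00129 by limma). Cidec, which makes droplets fuse in white fat, was at 68.0, 86.4 and 146.3 CPM and at 41.7, 15.7 and 20.3 CPM, a log2 change of -1.98 (SE 0.39, limma adjusted p = 0.00626). For all 3 genes K146Q mouse 60 was the highest mutant library. Cidea, its relative of brown fat, behaved otherwise, with 52.9, 39.5 and 35.5 CPM in WT mice and 2.92, 4.58 and 0.762 CPM in K146Q mice. It fell by 3.92 (SE 0.46, adjusted p = 0.00071 by limma), and here WT mouse 43, the highest library for Cidec, was the lowest WT library.

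Ucp1, the uncoupling protein that defines brown fat, had the largest fall and the widest spread. It was at 171, 120 and 29.2 CPM in WT thyroids and at 7.38, 8.58 and 0.293 CPM in K146Q thyroids, the last from 5 reads. The log2 change was -4.47 (SE 1.003, 95% interval -6.80 to -2.13, limma adjusted p = 0.011), and it ran from -5.23 to -3.33 with each library left out in turn. Elovl3, the elongase induced in brown fat by cold, was near the limit of detection with at most 15 reads. It was at 0.947, 0.886 and 0.662 CPM in WT and at 0.743, 0 and 0 CPM in K146Q mice, and its change of -0.97 (SE 0.38, limma adjusted p = 0.0805) was called in the fit without K146Q mouse 60 alone (-1.41, adjusted p = 0.00812 by limma). Cpt1b, the carnitine palmitoyltransferase of muscle and brown fat, was at 39.2, 37.8 and 30.1 CPM and at 10.6, 3.53 and 2.93 CPM. Its log2 change was -2.75 (SE 0.41, limma adjusted p = 0.00185). Its order over the WT libraries was the reverse of that of the muscle gene sums. Over the K146Q libraries its order was the same as that of the muscle gene sums. The regulators Ppargc1a and Prdm16, which are used outside brown fat as well, changed less. Ppargc1a, a coactivator of mitochondrial genes, went from 54.0 ± 8.28 to 29.0 ± 3.64 CPM (SD, n = 3 each) and Prdm16 from 62.2 ± 14.6 to 43.3 ± 2.74 CPM. Their log2 changes were -0.88 (SE 0.13, limma adjusted p = 0.00215) and -0.49 (SE 0.15, adjusted p = 0.0384). The call on Prdm16 was lost without any 1 of the 3 K146Q mice (adjusted p of 0.0775 to 0.104 by limma).

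**Figure D2:**
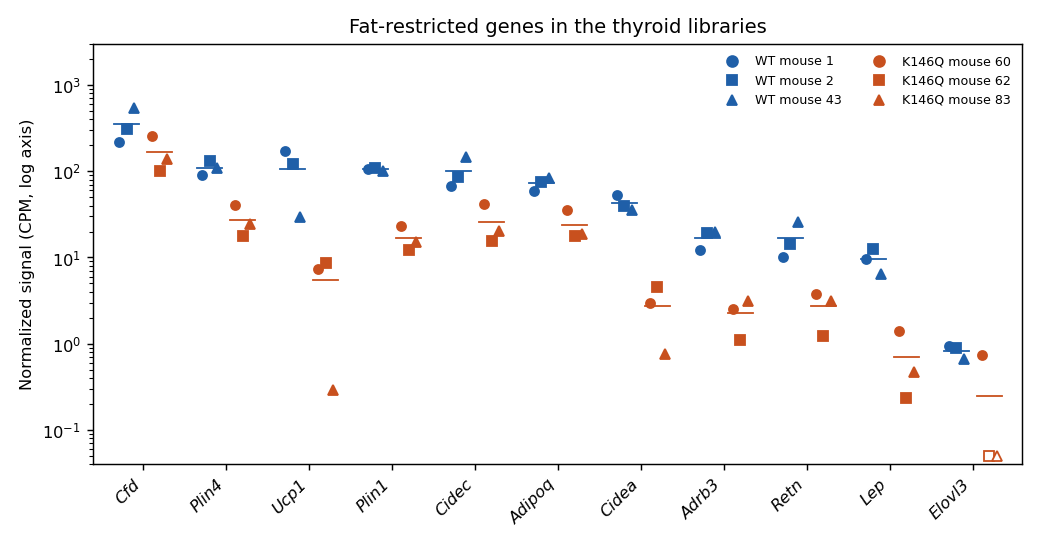
Level of the 11 fat-restricted genes in each thyroid library (vertical axis, CPM on a log scale), with WT mice in blue, K146Q mice in orange, a symbol for each mouse and a short line at each group mean. Open symbols at the bottom edge mark the 2 libraries with 0 reads of Elovl3; Cfd and Elovl3 are the genes whose genotypes overlap, and Ucp1 of WT mouse 43 lies far below that of the other WT mice.

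Genes that fat shares with other cells for taking up fatty acids and glucose fell together. Fabp4, a fatty acid carrier of adipocytes, capillaries and macrophages, was at 313, 298 and 408 CPM in WT and at 84.8, 59.4 and 43.1 CPM in K146Q thyroids, a log2 change of -2.48 (SE 0.24, limma adjusted p = 0.000294). Cd36, a fatty acid receptor with a similar range of cells, was at 125, 114 and 136 CPM and at 34.6, 20.1 and 17.5 CPM (-2.42, SE 0.23, adjusted p = 0.000292 by limma). Lpl, which frees fatty acids from circulating triglyceride, was at 248, 291 and 431 CPM and at 129, 67.3 and 71.6 CPM (-1.87, SE 0.28, limma adjusted p = 0.00204). In none of the 3 did the genotypes overlap. Aqp7, the glycerol channel of fat, was at 8.27, 7.34 and 5.71 CPM and at 1.54, 0.881 and 0.997 CPM (-2.22, SE 0.22, adjusted p = 0.000335 by limma). Slc2a4, the insulin-responsive glucose transporter of fat and muscle, was at 29.5, 50.3 and 55.8 CPM and at 22.4, 8.58 and 8.56 CPM (-1.84, SE 0.39, limma adjusted p = 0.00888). For Slc2a4 the order of the libraries within each genotype was also the order of their muscle gene sums.

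The genes that release fatty acids from fat were lower too. Adrb3, the adrenergic receptor through which fat is told to release fatty acids and make heat, was at 12.3, 19.3 and 19.5 CPM in WT and at 2.53, 1.12 and 3.17 CPM in K146Q thyroids, a log2 change of -2.71 (SE 0.33, limma adjusted p = 0.000765). Hormone-sensitive lipase, Lipe, was at 141, 145 and 153 CPM in WT and at 52.7, 34.4 and 37.3 CPM in K146Q thyroids (-1.83, SE 0.15, limma adjusted p = 0.000167). Pnpla2, the triglyceride lipase that acts before it, went from 332 ± 33.9 to 182 ± 22.6 CPM (SD, n = 3 each), a smaller log2 change of -0.87 (SE 0.12, adjusted p = 0.00142 by limma).

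Among the enzymes of fatty acid synthesis the falls ran from modest to very large. Acly, which makes cytosolic acetyl-CoA, went from 358 ± 63.4 to 232 ± 15.1 CPM (SD, n = 3 each), a log2 change of -0.61 (SE 0.14, limma adjusted p = 0.0119). Acaca, the carboxylase of the committed step, was at 389, 373 and 305 CPM in WT and at 136, 144 and 208 CPM in K146Q thyroids (-1.14, SE 0.17, adjusted p = 0.00215 by limma). Its mitochondrial relative Acacb was at 78.9, 106 and 116 CPM and at 29.3, 15.04 and 14.9 CPM (-2.37, SE 0.27, limma adjusted p = 0.0006). The library order differed between the 2 carboxylases. Acaca was highest in WT mouse 1 and in K146Q mouse 83, whereas Acacb was highest in WT mouse 43 and in K146Q mouse 60. Fasn, the synthase, was at 1755, 1897 and 1447 CPM and at 544, 495 and 703 CPM (-1.56, SE 0.18, adjusted p = 0.000625 by limma). Scd1, the desaturase that makes oleic acid, was at 5893, 4637 and 2971 CPM and at 378, 174 and 286 CPM. It fell by 4.02 (SE 0.34, limma adjusted p = 0.000172), the largest change of any general lipogenic gene and the second largest of the 39.

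Elovl6, the elongase that turns palmitate into stearate, moved the other way. It was at 235, 176 and 149 CPM in WT thyroids and at 438, 547 and 667 CPM in K146Q thyroids. The log2 change was 1.56 (SE 0.20, 95% interval 1.09 to 2.03, limma adjusted p = 0.00104), and it stayed between 1.41 and 1.74 with each library left out. The WT library lowest in Elovl6, mouse 43, was lowest in Scd1 as well.

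**Figure D3:**
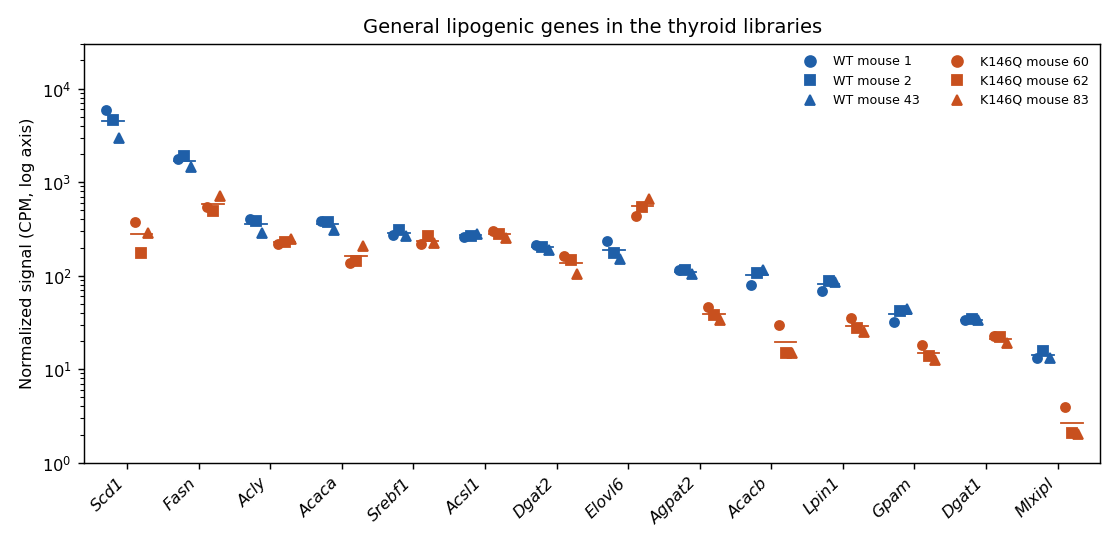
Level of the 14 general lipogenic genes in each thyroid library (vertical axis, CPM on a log scale), drawn as in the plot of fat-restricted genes. Elovl6 is the gene with all K146Q libraries above all WT libraries, Scd1 has the widest gap between genotypes, and Srebf1 and Acsl1 overlap.

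The enzymes that build triglyceride mostly fell by less than the droplet genes. Agpat2, the acyltransferase of adipocytes, was at 114, 115 and 103 CPM in WT and at 46.3, 38.2 and 33.7 CPM in K146Q thyroids (-1.49, SE 0.12, limma adjusted p = 0.000158), and its exons overlap those of Egfl7 in the annotation. Gpam, which starts the pathway, was at 32.1, 42.1 and 43.8 CPM and at 17.99, 13.9 and 12.7 CPM (-1.38, SE 0.17, adjusted p = 0.000813 by limma). Lpin1, the phosphatidate phosphatase, was at 69.3, 87.4 and 85.3 CPM and at 35.3, 27.7 and 24.8 CPM (-1.45, SE 0.15, limma adjusted p = 0.000389). These 3 were highest in K146Q mouse 60 among the mutants. The acyltransferases of the last step fell by less than these 3, Dgat1 from 33.8 ± 0.213 to 21.1 ± 1.93 CPM (-0.67, SE 0.0965, adjusted p = 0.00166) and Dgat2 from 201 ± 12.2 to 137 ± 29.8 CPM (-0.57, SE 0.16, adjusted p = 0.026 by limma). Dgat2 was no longer called without WT mouse 1 (adjusted p = 0.0691 by limma), WT mouse 2 (0.0558) or K146Q mouse 62 (0.0535). Acsl1, which activates fatty acids, stayed at 270 ± 9.66 and 277 ± 26.3 CPM (SD, n = 3 each), a log2 difference of 0.0346 (95% interval -0.19 to 0.26, limma adjusted p = 0.802) whose sign changed with the scaling.

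The glycerol for triglyceride comes in part from Gpd1 and, in fat and liver, from Pck1. Pck1 was at 126, 131 and 150 CPM in WT and at 22.9, 13.8 and 17.1 CPM in K146Q thyroids, and with a log2 change of -2.91 (SE 0.17, limma adjusted p = 5.81e-05) it had the smallest adjusted p of the 39 genes. Gpd1 was at 361, 319 and 289 CPM and at 166, 116 and 104 CPM (-1.35, SE 0.18, adjusted p = 0.00107 by limma). Both fell without overlap.

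The transcription factors divided. Mlxipl, the carbohydrate-responsive factor ChREBP, was at 13.3, 15.8 and 13.1 CPM in WT and at 3.92, 2.06 and 2.05 CPM in K146Q thyroids (-2.24, SE 0.23, limma adjusted p = 0.000427). Cebpa, which drives adipocyte differentiation and is expressed in other cells too, went from 167 ± 8.67 to 87.4 ± 8.83 CPM (SD, n = 3 each; -0.93, SE 0.094, adjusted p = 0.000369 by limma). Neither of the other 2 passed. Pparg, the master regulator of fat cells, was at 22.1, 18.7 and 13.0 CPM and at 10.7, 11.9 and 13.4 CPM, so that WT mouse 43 lay within the mutant range. Its log2 change was -0.53 (SE 0.20, limma adjusted p = 0.0663), and it passed without WT mouse 43 (-0.74, adjusted p = 0.0102 by limma). Srebf1, the sterol-responsive activator of lipogenic genes, went from 282 ± 23.3 to 236 ± 26.4 CPM (SD, n = 3 each; -0.26, SE 0.11, limma adjusted p = 0.0961).

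Promoters from RefSeq (GRCm38.p6, 250 bases before to 50 after the start) were found for 28 of the 39 genes, 8 of them fat-restricted. They were searched on both strands for the C/EBP-type motif TTGCNNAA, the nuclear receptor half-site AGGTCA, its direct repeats AGGTCANAGGTCA and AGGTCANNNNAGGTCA, the sterol element type TCACNCCAC and the E-box CACGTG; the half-site is contained in both repeats. TTGCNNAA was present in 5 genes (Cidec, Gpam, Lep, Plin1 and Pparg), and 3 of them were among the 8 fat-restricted genes, beside 10.8% of 32851 promoters. AGGTCA was present in 9 of the 28 genes, beside 16.3% of promoters. The repeats were in 0 of the 28 (0.0396% and 0.0152% of promoters), TCACNCCAC in 2 (1.24%) and CACGTG in 2 (7.15%). The listed genes were counted by gene and the background by promoter, so these shares are not in like units. The 3 fat-restricted promoters with TTGCNNAA are printed because each of these genes was called lower in thyroid, and that of Elovl6 because it was the 1 gene that rose. Letters in capitals mark TTGCNNAA in the first 3 and the half-site, which lies on the reverse strand, in Elovl6. The positions are chr7:79732727-79733026 on the minus strand for Plin1, chr6:29059971-29060270 on the plus strand for Lep, chr6:113434715-113435014 on the minus strand for Cidec and chr3:129532136-129532435 on the plus strand for Elovl6.
Plin1: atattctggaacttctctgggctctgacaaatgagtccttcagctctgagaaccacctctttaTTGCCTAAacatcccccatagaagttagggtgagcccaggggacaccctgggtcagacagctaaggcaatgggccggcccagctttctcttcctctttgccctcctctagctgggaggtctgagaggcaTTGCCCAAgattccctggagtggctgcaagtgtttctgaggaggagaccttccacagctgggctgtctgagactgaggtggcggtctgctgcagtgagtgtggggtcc
Lep: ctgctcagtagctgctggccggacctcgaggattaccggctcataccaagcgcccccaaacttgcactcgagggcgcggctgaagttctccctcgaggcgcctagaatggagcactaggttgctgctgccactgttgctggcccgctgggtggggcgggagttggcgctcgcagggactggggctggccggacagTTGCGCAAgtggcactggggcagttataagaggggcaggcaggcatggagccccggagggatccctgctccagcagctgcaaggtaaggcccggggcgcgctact
Cidec: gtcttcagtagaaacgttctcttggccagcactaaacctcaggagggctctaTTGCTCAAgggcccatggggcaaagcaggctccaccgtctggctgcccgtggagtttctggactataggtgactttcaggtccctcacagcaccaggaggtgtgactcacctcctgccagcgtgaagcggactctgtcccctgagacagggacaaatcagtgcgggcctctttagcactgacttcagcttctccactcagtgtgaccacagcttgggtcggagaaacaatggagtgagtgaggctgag
Elovl6: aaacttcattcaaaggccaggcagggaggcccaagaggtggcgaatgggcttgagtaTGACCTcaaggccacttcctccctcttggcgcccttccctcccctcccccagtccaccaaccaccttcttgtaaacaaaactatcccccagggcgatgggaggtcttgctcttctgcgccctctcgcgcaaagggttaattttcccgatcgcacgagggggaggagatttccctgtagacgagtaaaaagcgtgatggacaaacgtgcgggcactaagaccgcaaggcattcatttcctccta

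The spread between libraries showed whether the fat genes moved as a block. Summed over the 11 fat-restricted genes, with Cfd as the largest contributor, the level was 797, 913 and 1105 CPM in WT thyroids and 415, 181 and 225 CPM in K146Q thyroids. The sum over the 14 general lipogenic genes was 9766, 8644 and 6285 CPM in WT and 2550, 2401 and 2798 CPM in K146Q thyroids. The order of the WT libraries in both sums changed when 1 gene was left out of each. Without Cfd the fat-restricted sum was 581, 606 and 556 CPM in WT and 160, 78.9 and 86.2 CPM in K146Q thyroids, and without Scd1, a choice made after the values were seen, the lipogenic sum was 3873, 4008 and 3314 CPM in WT and 2172, 2227 and 2511 CPM in K146Q thyroids. Both sums were then highest in WT mouse 2 and lowest in WT mouse 43. The fat-restricted sum without Cfd still held Ucp1, at 171, 120 and 29.2 CPM in WT thyroids. That range was wider than the range of the sum itself, so its order depended on Ucp1 as well. The WT mean over the K146Q mean went from 3.43 to 5.37 for the fat-restricted sum without Cfd, and from 3.19 to 1.62 for the lipogenic sum without Scd1. WT mouse 43 was the highest WT library for 15 of the 39 genes, among them Cfd, Cidec and Lpl, and the lowest for 22, among them Ucp1, Cidea and 10 of the 14 general lipogenic genes. Among the K146Q libraries, mouse 60 was the highest for 27 of the 39 genes and for 8 of the 11 fat-restricted ones, mouse 83 was the lowest for 19, and mouse 62 was the lowest for 9 of the 11 fat-restricted genes. Sums over the 5 brown fat genes (Ucp1, Elovl3, Cpt1b, Ppargc1a and Prdm16) were 329, 289 and 161 CPM in WT and 88.6, 91.6 and 70.8 CPM in K146Q thyroids, with Ucp1 the member that differed most between WT libraries.

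To set the genes against each other within a library, each level was divided by that of Plin1, which was chosen for this after its narrow WT range was seen. A ratio compares the same gene between libraries and says nothing of the levels of different genes. If a gene had fallen in step with Plin1 its ratio would be alike in both genotypes. Of the other 10 fat-restricted genes the ratio overlapped between genotypes for 6, was higher in every K146Q library for 3 and lower for 1. For the 14 general lipogenic genes it overlapped for 2, was higher for 11 and lower for 1, and for the 14 shared genes the numbers were 4, 9 and 1. Over the other 15199 genes tested the ratio was higher in every K146Q library for 95.5% and lower for 0.296%, so that a higher ratio is what nearly all genes showed. Retn had ratios of 0.0946, 0.132 and 0.256 in WT and 0.159, 0.101 and 0.210 in K146Q thyroids, and Adrb3 of 0.115, 0.178 and 0.194 against 0.108, 0.0913 and 0.210. These 2 are examples of genes that moved with Plin1 within the spread. The ratio of Adipoq, at 0.560, 0.691 and 0.829 in WT, was 1.52, 1.44 and 1.24 in K146Q thyroids, and that of Cfd went from 2.04, 2.83 and 5.45 to 10.95, 8.35 and 9.19. Lep was the fat-restricted gene whose ratio was lower, from 0.0905, 0.115 and 0.0632 to 0.0594, 0.0192 and 0.0311. Of the lipogenic genes Scd1 went below its WT ratios, from 55.5, 42.9 and 29.5 to 16.2, 14.2 and 19.0, while Fasn went above them, from 16.5, 17.5 and 14.4 to 23.3, 40.5 and 46.7. Scd1 thus fell by more than Plin1 in each pair of libraries, and most general lipogenic genes by less. Among the shared genes, Aqp7, Fabp4, Cd36 and Cpt1b kept ratios that overlapped between genotypes, and Pck1 was the 1 that was lower throughout.

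**Figure D4:**
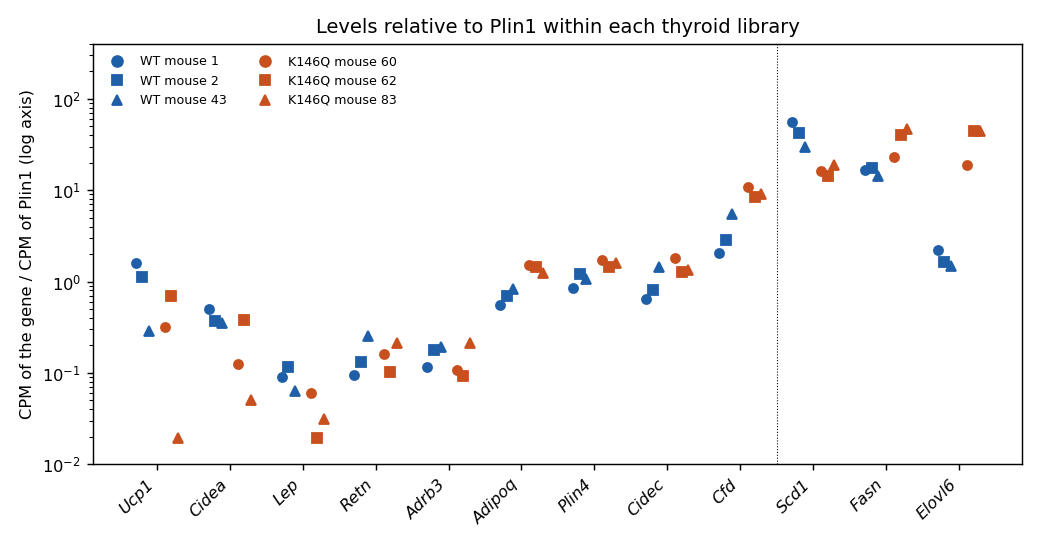
Level of 12 genes divided by the level of Plin1 in the same thyroid library (vertical axis, ratio on a log scale), with 9 fat-restricted genes left of the dotted line and 3 general lipogenic genes right of it. Retn, Adrb3, Ucp1, Cidea and Cidec overlap between WT (blue) and K146Q (orange) mice, Lep and Scd1 are lower and Adipoq, Plin4, Cfd, Fasn and Elovl6 higher in all 3 K146Q libraries.

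Markers of neighbouring tissue moved with the genotype for some cell types and not for others. Beside the counts that follow, 18.1% of all 15200 thyroid genes tested were called lower and 19.7% higher. All 3 parathyroid genes fell, with a median log2 change of -2.40, and their sum was 3454, 6409 and 4129 CPM in WT and 1569, 523 and 622 CPM in K146Q thyroids. Among the K146Q mice this sum was highest in mouse 60, as were the fat-restricted, C cell and muscle sums. Its order over the WT mice was not that of the fat-restricted sum. The muscle sum had the WT order of the fat-restricted sum with Cfd, but not of that sum without Cfd. Over the K146Q mice the muscle and fat-restricted sums differed in the order of mice 62 and 83. The 8 follicular cell genes, of which 3 rose and 2 fell, summed to 299701 to 361414 CPM in WT and 90348 to 137795 CPM in K146Q thyroids. The mean log2 level of these 8 genes differed by only -0.0523 (K146Q minus WT), so their lower sum is that of the most abundant genes. Of 3 C cell genes 2 fell and 1 rose, with sums of 8898 to 14899 CPM and 1314 to 3490 CPM. Of 10 skeletal muscle genes 0 were called by limma (0 at an unadjusted p under 0.05), the median being -0.61. Endothelial markers, which bear on Fabp4, Cd36 and Lpl, rose in 4 of 9 and fell in 0, and their sum was 762 to 860 CPM in WT and 987 to 1032 CPM in K146Q thyroids. Leukocyte markers rose in 5 of the 6 tested of 8 (93.7 to 133 and 245 to 250 CPM), fibroblast markers rose in 3 and fell in 2 of 8, and no defining marker of any of these lists was at 0 in every thyroid library. The part of these tissues in the falls was not tested. Without WT mouse 1, whose muscle sum stood apart, the adjusted p of every called gene but Dgat2 stayed under 0.05 by limma. That fit left muscle sums of 6130 and 9028 CPM in WT beside 5109, 1265 and 1110 CPM in K146Q mice. It did not even out muscle content between the genotypes.

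Other genes of the same pathways were listed by name and read in thyroid, where 18.1% of all 15200 genes tested were called lower and 19.7% higher. Of 14 further adipocyte genes 9 fell and 1 rose (median -1.80), of 12 brown fat genes 7 fell (median -0.62), of 16 lipogenic genes 9 fell and 2 rose (median -0.47), and of 10 genes of lipolysis and fatty acid oxidation 7 fell and 1 rose (median -0.69). Among the adipocyte genes Pnpla3 went from 18.7 to 28.5 CPM in WT down to 1.29 to 2.68 CPM in K146Q mice (-3.40, SE 0.25, limma adjusted p = 0.000112). Mest, a gene that rises with fat expansion and in growing tissue, was the 1 that rose, from 45.2 to 94.5 CPM up to 463 to 538 CPM (2.80, SE 0.25, adjusted p = 0.000221 by limma). Kcnk3, a potassium channel of brown fat, fell by 2.66 (SE 0.12, limma adjusted p = 1.36e-05), and Cox8b, a subunit of cytochrome oxidase in muscle and brown fat, by 2.65 (SE 0.39, adjusted p = 0.00176). Of the lipogenic genes Thrsp, the thyroid hormone-responsive Spot 14, went from 162 to 181 CPM down to 14.6 to 22.3 CPM (-3.27, SE 0.16, limma adjusted p = 2.16e-05), and Acss2, which makes acetyl-CoA from acetate, fell by 2.71 (SE 0.22, adjusted p = 0.000154). Plin2, the droplet coat of cells other than adipocytes, rose from 70.2 to 97.7 CPM up to 154 to 170 CPM (0.92, SE 0.13, limma adjusted p = 0.00147) while Plin1 and Plin4 fell.

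The normalization bore on counts more than on these genes. Totals recomputed without the 10 highest genes shifted the median of all thyroid genes by -0.0939, and raised the share of calls that were lower from 47.9% to 59.1%. The 39 genes then counted 36 lower and 1 higher.

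In the pituitary the list was split and the changes were small. Of the 39 genes 29 passed the filter, and limma called 5 lower and 3 higher in K146Q mice, against a background of 9.86% of 15589 genes, 3.5% lower and 6.36% higher. In all, 10 genes, 9 of them fat-restricted, had at most 10 reads in any pituitary library and were left out. Genotypes did not overlap for 10 genes below and 4 above WT, beside 14.3% and 16.7% of all genes. The median log2 change over the 29 genes was -0.15 and over all genes -0.00875.

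The lower genes were general lipogenic ones and Plin4. Mlxipl was at 9.34, 12.1 and 7.86 CPM in WT and at 3.51, 5.36 and 5.12 CPM in K146Q pituitaries (-0.99, SE 0.20, limma adjusted p = 0.0126). Scd1 was at 43.2, 41.7 and 50.7 CPM and at 26.2, 26.4 and 35.4 CPM (-0.62, SE 0.13, adjusted p = 0.016 by limma). Plin4 was at 2.14, 3.37 and 2.16 CPM and at 1.03, 0.817 and 1.35 CPM, from 16 to 59 reads (-0.95, SE 0.22, limma adjusted p = 0.025). The other two, both enzymes of triglyceride synthesis, fell by less. Gpam went from 36.7 ± 6.34 to 24.9 ± 2.63 CPM (SD, n = 3 each; -0.54, SE 0.13, limma adjusted p = 0.031) and Lpin1 from 172 ± 7.92 to 134 ± 6.42 CPM (-0.36, SE 0.070, adjusted p = 0.0115). The 3 higher genes were all of the shared set. Fabp4 was at 3.96, 3.37 and 5.87 CPM and at 7.89, 8.01 and 7.88 CPM (0.81, SE 0.18, limma adjusted p = 0.0228). Lpl was at 63.6, 66.8 and 49.0 CPM and at 113, 87.4 and 79.7 CPM (0.63, SE 0.15, adjusted p = 0.0255 by limma). Cebpa was at 5.87, 5.20 and 6.61 CPM and at 10.1, 8.01 and 9.58 CPM (0.60, SE 0.14, limma adjusted p = 0.0278). Beside these 3, leukocyte markers rose in 4 of 6 tested (sums of 48.7 to 55.3 CPM in WT and 78.3 to 119 CPM in K146Q mice) and endothelial markers in 2 of 9 (295 to 312 and 343 to 355 CPM), and the sum of pituitary markers was 133731 to 257093 CPM in WT and 110075 to 119942 CPM in K146Q mice. The mean log2(CPM + 0.5) of the 9 pituitary markers was higher in K146Q mice by 0.41, so their lower sum is that of the most abundant genes. Over all 15589 genes tested in pituitary 6.36% were called higher. The part of these cell types in the pituitary results was not tested.

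These 8 calls depended on single libraries of both genotypes. Without K146Q mouse 60, 0 of the 39 genes were called by limma and all genes called fell from 1537 to 625. Without K146Q mouse 62 the count was 3 genes, with 752 called over all genes, and without WT mouse 1 it was 5. Totals without the 10 highest genes raised the share of lower calls over all genes from 35.5% to 51.2%, and called 7 of the 39 genes lower and 3 higher. Cpt1b was at 3.60, 4.92 and 3.02 CPM in WT and at 0, 2.40 and 2.46 CPM in K146Q pituitaries (-1.40, SE 0.58, limma adjusted p = 0.171). A value of 0 reads in K146Q mouse 60 beside 47 and 49 reads in the other mutants stood apart. In the annotation Cpt1b shares exons with Gm44502, a gene with no values in the tables used here.

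In the hypothalamus no difference was detected in these genes. Of the 39, 30 passed the filter and limma called 0 of them and 0.0% of 15761 genes, with 2 of the 30 at an unadjusted p under 0.05. Those were Pnpla2 (29.7 ± 3.70 and 24.8 ± 2.31 CPM, SD, n = 3 each, log2 change -0.26, limma adjusted p = 0.998) and Cd36 (2.28 ± 0.175 and 1.59 ± 0.489 CPM, log2 change -0.44, adjusted p = 0.998). Both overlapped between genotypes. On the recovered reads edgeR and DESeq2 called 0 of the 39 genes. Genotypes did not overlap for 3 genes below and 2 above WT, beside 4.95% and 4.2% of all genes. The log2 changes ran from -0.48 for Cpt1b to 0.37 for Lpl, with a median of -0.0547 beside -0.00108 over all genes, and no 95% interval was wider than 0.602 to either side. Among the 14 general lipogenic genes the widest interval reached 0.425 to either side, for Agpat2, while Scd1 and Fasn had narrow ones, with Scd1 at 382 ± 18.3 and 376 ± 11.3 CPM (SD, n = 3 each) and an interval of -0.12 to 0.0761, and Fasn at 571 ± 14.2 and 542 ± 23.8 CPM and an interval of -0.17 to 0.0197.

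**Figure D5:**
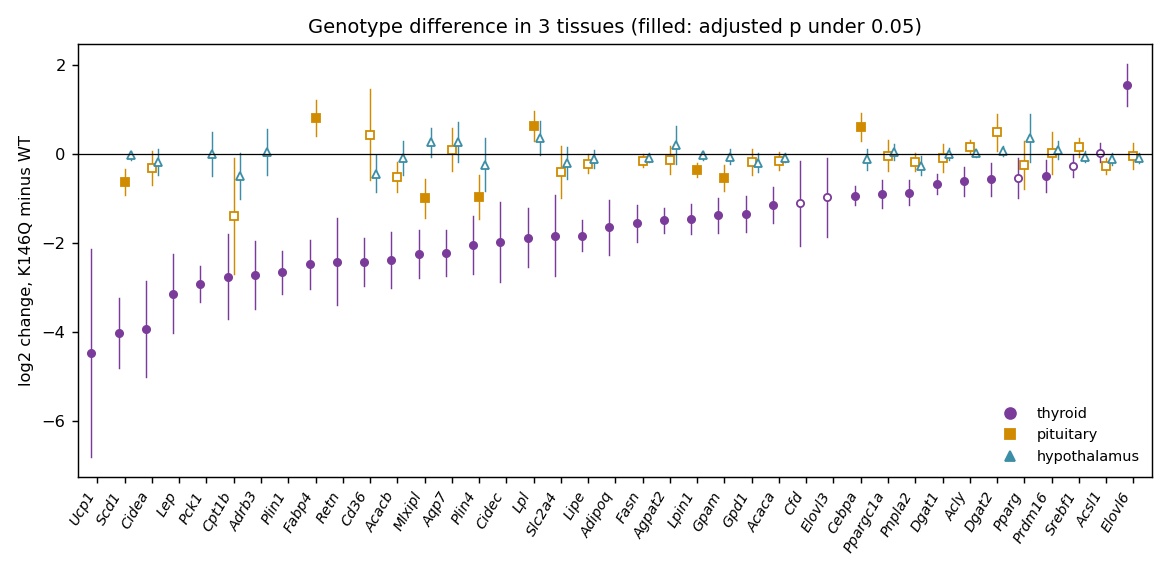
Genotype difference (vertical axis, log2 change of K146Q minus WT mice with 95% interval, limma, n = 3 and 3) of the 39 genes in thyroid (circles), pituitary (squares) and hypothalamus (triangles), ordered by the thyroid value, with filled symbols for an adjusted p under 0.05. Genes that did not pass the filter in a tissue have no symbol there; 34 thyroid, 8 pituitary and 0 hypothalamus symbols are filled.

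Whether the effects differed between tissues was tested in 1 fit over all 18 libraries. The genotype effect in thyroid differed from that in pituitary for 34 of the 39 genes, 32 of them more negative in thyroid, where 33.8% of 17140 genes differed and 17.4% were more negative. It differed from that in hypothalamus for 33 genes, 32 of them more negative in thyroid, where 30.8% of genes differed and 15.2% were more negative. For the genes at or near 0 reads in pituitary and hypothalamus these differences are the thyroid change over again. Among genes well expressed in both, Scd1 was lower in thyroid by a further 3.40 (SE 0.33, limma adjusted p = 8.42e-07) than in pituitary and Fasn by 1.41 (SE 0.15, adjusted p = 2.92e-06). Lpl and Cebpa, which rose in the pituitary and fell in the thyroid, differed by -2.51 (SE 0.34, limma adjusted p = 3.18e-05) and -1.53 (SE 0.15, adjusted p = 1.12e-06). The effect on Elovl6 in thyroid was 1.60 (SE 0.23, limma adjusted p = 4.73e-05) above that in pituitary and 1.64 (SE 0.23, adjusted p = 4.29e-05) above that in hypothalamus. Between pituitary and hypothalamus 2 genes differed, beside 3.24% of all genes (0.945% below 0 and 2.29% above): Mlxipl by -1.25 (SE 0.30, limma adjusted p = 0.0279) and Cebpa by 0.72 (SE 0.15, adjusted p = 0.0133). Neither was called without mouse 1, 2 or 60 (limma adjusted p of 0.0678 to 0.134 for Mlxipl and 0.0560 to 0.0832 for Cebpa). Mlxipl was also lost without mouse 62 (limma adjusted p = 0.0855) and Cebpa without mouse 83 (0.0762).

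In WT mice most of the genes were highest in thyroid. Of the 39 genes 35 were highest in thyroid by both tests against pituitary and hypothalamus. WT thyroid differed from WT pituitary for 37 genes (75.6% of all genes) and from WT hypothalamus for 38 (81.9%), and the 2 tissues other than thyroid differed from each other for 24 (73.0%). The fat-restricted genes set the tissues apart most sharply. Plin1 was at 105 ± 3.79 CPM in WT thyroid (SD, n = 3), and at 0.0190 ± 0.0329 CPM in pituitary and 0.0972 ± 0.0666 CPM in hypothalamus, both under the limit that 3 reads set, and Lep had 0 reads in all 6 WT libraries of these tissues. Cidea was an exception, at 42.6 ± 9.13 CPM in thyroid, 25.8 ± 5.83 CPM in pituitary and 3.90 ± 0.0810 CPM in hypothalamus (SD, n = 3 each). All 3 WT thyroid libraries lay above all 3 WT pituitary libraries in Cidea, but the difference missed the threshold (log2 difference 0.71, SE 0.34, limma adjusted p = 0.0642), while Ucp1 had at most 2 reads in any pituitary library. In K146Q mice Cidea was lower in thyroid, at 2.76 ± 1.92 CPM, than in pituitary, at 20.7 ± 3.73 CPM (SD, n = 3 each).

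The general lipogenic genes were expressed in all 3 tissues. Lpin1 was highest in pituitary, at 172 ± 7.92 CPM beside 80.7 ± 9.92 CPM in thyroid and 64.6 ± 1.82 CPM in hypothalamus, and Gpam in hypothalamus, at 52.5 ± 6.01 CPM beside 39.3 ± 6.34 and 36.7 ± 6.34 CPM in thyroid and pituitary (SD, n = 3 each). Gpam of thyroid and pituitary did not differ beyond their spread (log2 difference 0.0998, SE 0.15, limma adjusted p = 0.546). Ppargc1a was level between hypothalamus, at 56.4 ± 5.998 CPM, and thyroid, at 54.0 ± 8.28 CPM (log2 difference -0.0688, SE 0.13, adjusted p = 0.627 by limma), and lower in pituitary, at 4.66 ± 0.765 CPM. For Scd1 the order was thyroid, hypothalamus and pituitary, at 4500 ± 1466, 382 ± 18.3 and 45.2 ± 4.83 CPM, and with the fall in K146Q mice to 279 ± 102 CPM the thyroid mean lay below the hypothalamus mean.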

How the data were processed

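RNA-Seq was performed on hypothalamus, pituitary and thyroid of 3 WT and 3 K146Q mice. The methods describe collection of the pituitary and hypothalamus, and the labels add the thyroid. Per the submitters' processing notes, bcl2fastq 2.17, Bowtie2 2.1.0, RSEM 1.2.15 and mm10 were used. The strand setting of the counting is not given in the sources used here. The deposited signal values are CPM of an effective library size, and 100.0% of them gave whole reads within 0.05. The factors matched trimmed-mean factors over all 18 libraries (largest difference 0.0899%). The deposited tables also hold fold changes, test statistics and p-values of the authors, which were not used. Tables held 24054 genes, of which 24027 were shared by symbol, since 27 symbols in hypothalamus and pituitary had turned into dates.

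Genes at 0.5 CPM or more in 3 of 6 libraries were tested within each tissue with limma 3.58.1 (R 4.3.3) on log2(CPM + 0.5) with a trended prior. The added 0.5 CPM understates changes of low genes. The p-values were adjusted by Benjamini-Hochberg with a threshold of 0.05. A joint fit of 18 libraries tested differences between tissues. Alternatives were other pseudocounts (0.1 and 1), filters and scalings, no trend, edgeR 4.0.16 and DESeq2 1.42.0 on the recovered reads, a replicate block and leaving out each library. In simulated counts the thyroid fit recovered 97% of genes changed by 1 on the log2 scale and the thyroid-minus-pituitary fit 67%. The simulated counts had the same dispersion for every gene, and only well expressed genes were changed. These shares need not hold for genes as variable between libraries as Ucp1. Tables and plots were made with Python 3.11.15, pandas 2.3.3 and matplotlib 3.10.9.

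All 39 genes were named by list, with values in every library for fat-restricted genes and those called with a log2 change of at least 1 in size, and means, ranges or counts for the others. Genes of the other lists were named by the largest rise or fall, and Cox8b, Acss2 and the values of Cebpa in each pituitary library were added after they were seen. The genes and lists were chosen with earlier results of these data known. Mouse numbers recur across tissues, and the design speaks of 3 mice per genotype, which is where the pairing comes from. Deviations of same-numbered libraries correlated at -0.0386 to 0.193 over 18 pairs (6 over 0.1). The K146Q and WT mice are different animals, so no pairing exists within a tissue. Reads per library (14902330 to 21230050) set the counting error, and p-values measure the spread between 3 mice.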

Additional observations from a re-analysis of the deposited data

Results flagged for a closer look

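In the joint limma fit the genotype effect differed between thyroid and pituitary for 7 of the 8 genes called in pituitary (all but Plin4) and for Elovl6, the gene that rose in thyroid. The thyroid effect minus the pituitary effect was -3.29 for Fabp4, -2.51 for Lpl and -1.53 for Cebpa, which rose in pituitary and fell in thyroid. It was -3.40 for Scd1, -0.84 for Gpam, -1.25 for Mlxipl and -1.09 for Lpin1, which fell in both tissues, and 1.60 for Elovl6. The pituitary effect minus the hypothalamus effect was -1.25 for Mlxipl and 0.72 for Cebpa.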

How the results depend on the processing

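Leaving out 1 library at a time gave 32 to 35 of the 39 genes called in thyroid (34 with all libraries), 0 to 8 in pituitary (8) and 0 to 0 in hypothalamus. Over all genes it gave 3602 to 5106 calls in thyroid (5739 with all, the lowest without K146Q mouse 62), 625 to 1345 in pituitary (1537) and 0 to 6 in hypothalamus (0). Differences of the genotype effect were called for 30 to 35 genes between thyroid and pituitary, 29 to 34 between thyroid and hypothalamus and 0 to 2 between pituitary and hypothalamus. The other settings gave 33 to 37 genes in thyroid and 6 to 10 in pituitary, and DESeq2 called 9 genes in hypothalamus over all genes, none of the 39. The Acsl1 difference in thyroid changed sign with quantile normalization (-0.0920), with totals without the 10 highest genes (-0.0613) and without K146Q mouse 60 (-0.0317), within -0.0317 to 0.106 over the libraries left out. The causes of these changes were not tested. With the replicate block by mouse number the pairing gave 33 genes between thyroid and pituitary, since Elovl3 went from an adjusted p of 0.0424 to 0.0521 in limma, and 33 between thyroid and hypothalamus, where Pparg (0.0473) and Dgat2 (0.0446) were gained and Elovl3 (0.0580) and Cpt1b (0.0561) lost. Genes with few reads, such as Elovl3 with at most 15 in thyroid and 9 of the 11 fat-restricted genes in pituitary with at most 10, limit what could be seen there.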
